A study of Homo sapiens with 4 samples.

Results

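The long arm of human chromosome 8 was described in 3 lists of genomic regions: regions of replication initiation in HCT116 cells with unaltered RepID (WT), regions of initiation in HCT116 cells with a RepID knockout (KO), and regions bound by RepID. Members were chosen by position, as every region that starts at or beyond 47000000 on chromosome 8 of the hg19 build, and no region straddled that base. There were 10484 members among the 262748 regions of the 3 lists (3.99%). They comprised 2305 of 78859 WT regions (2.92%), 7394 of 159667 KO regions (4.63%) and 785 of 24222 RepID regions (3.24%). The arm was selected on its measured numbers and covered lengths of WT and KO regions, so every contrast between WT and KO along it is given as a description, with no test. For comparison, the short arm (starts below 43000000) held 1333 WT, 2634 KO and 231 RepID regions. The 4 Mb between the arms held 14, 31 and 2.

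HCT116 is a colon carcinoma line and U2OS an osteosarcoma line, both grown as asynchronous cultures. Nascent DNA strands, the short strands left after exonuclease digestion, mark sites where replication has begun, and they were sequenced (NS-Seq) from WT cells and from cells in which RepID had been disrupted by CRISPR. RepID binding was measured by ChIP-Seq with an antibody against FLAG in U2OS cells that expressed FLAG-tagged RepID, so the binding sites come from a different line than the origins. Both HCT116 lists were called against a single genomic DNA control of HCT116 cells, which was not analysed here, and each condition has 1 library. No spread between replicates exists, and all intervals below are 95% intervals that cover counting error only. The depth of the libraries is unknown, because the lists give no read totals.

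Replication of a human chromosome starts at many origins, only some of which fire in any 1 cell, and origins tend to lie close together in early-replicating, gene-rich stretches and far apart in late-replicating, gene-poor ones. RepID, also called PHIP, is a chromatin-binding protein with WD repeats and bromodomains that associates with a subset of origins and takes part in initiation there. HCT116 cells are described as carrying a gain on this arm, whose extent was not measured here. Copy number was not measured in the lists, and its part in the values below was not tested.

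The first WT region inside it, chr8:47003001-47007000, scored 485, and the last one before it, chr8:46951001-46952600, scored 228. The first KO region inside, chr8:47007601-47015200, scored 317, against 86 for the last one before the arm, chr8:46985201-46987200. The first RepID region, chr8:47033655-47034654, scored 324.2, and the last one outside, chr8:46951078-46951419, scored 101.06. Scores varied on both sides, so these pairs show no step at the start of the arm. In order of position, WT regions scored 604, 1101 and 228 before it and 485, 5572 and 4518 inside. KO regions scored 138, 332 and 86 before it and 317, 131 and 127 inside. The RepID scores were 113.92, 426.03 and 101.06 before it and 324.2, 106.02 and 121.06 inside. The score of a nascent-strand region is 1 whole number whose meaning is not stated, whereas the score of a RepID region is the value given by the peak caller MACS, so scores were compared only within a list.

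On the long arm, initiation regions were sparser than on the short arm in WT cells and denser in KO cells. WT cells had 23.2 regions per Mb on the long arm and 31 on the short arm. KO cells had 74.5 per Mb on the long arm and 61.3 on the short arm. The ratio of KO to WT regions was therefore 3.21 (3.06 to 3.36) on the long arm, against 1.98 (1.85 to 2.11) on the short arm and 2.02 (2.01 to 2.04) on the other autosomes. On the long arm it was 7.40 when only WT regions at or above the median score were counted, and 2.14 when the KO list was limited to as many top-scoring regions as the WT list. With that limit the KO and WT lists are equal in number over the whole genome. Neither setting was computed for the short arm or the other autosomes, so 7.40 and 2.14 cannot be set against 1.98 and 2.02. In covered length the contrast was wider. WT regions covered 8.72% of the long arm (8.66 Mb) and KO regions 34.8% (34.5 Mb), a ratio of 3.99. On the short arm they covered 10.1% and 20.7%, a ratio of 2.05, and on the other autosomes the ratio of covered lengths was 1.78.

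The KO regions of the long arm were also wider and higher in score than KO regions elsewhere. Their median width was 3400 bp, against 3000 bp on the short arm and 3000 bp on the other autosomes. KO regions over 10 kb made up 8.40% of the arm's list (621 regions), 1.10% of that of the short arm (29) and 1.89% of that of the other autosomes. The median KO score was 178 on the long arm, which is the 72.2nd percentile of the whole KO list, against 129 on the short arm and 128 on the other autosomes. Among WT regions, the share over 10 kb was also above that of the short arm, at 5.99% (138) against 3.83% (51), but below the 6.84% of the other autosomes. The order of WT scores was the opposite of that in KO cells, with a median score of 103 on the long arm, 115 on the short arm and 123 on the other autosomes. The median RepID region of the long arm was 680 bp wide and scored 211, that of the short arm 456 bp and 159, and that of the other autosomes 558 bp and 199.

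**Figure D1:**
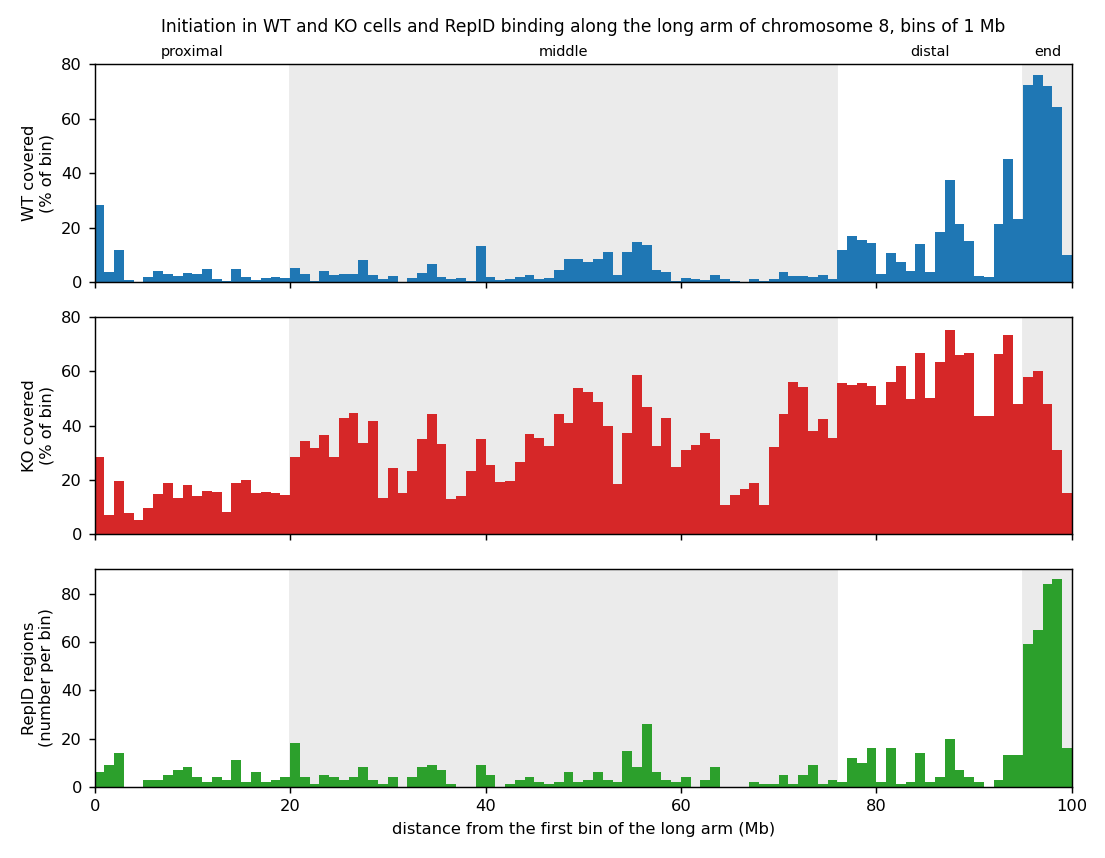
Share of each 1 Mb bin covered by WT regions (top) and by KO regions (middle), and number of RepID regions per bin (bottom), against the distance from the first bin of the long arm in Mb. Shading separates the proximal, middle, distal and end zones; KO coverage was low in the proximal zone and highest in the distal one, and WT coverage and RepID regions were densest in the end zone, whose last bin is only partly within the listed span.

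In bins of 1 Mb, the excess of KO regions was present along nearly the whole arm. At least 2-fold more KO than WT regions (log2 of the ratio, with 1 added to each count, of at least 1) were found in 81 of 100 bins of the long arm and in 27 of 43 bins of the short arm (62.8%). The same held for 64.6% of the 2734 autosomal bins. At least 2-fold more WT regions were found in 0 of 100 bins of the long arm, against 1.02% of autosomal bins. No bin of the long arm held more WT than KO regions at all. On the short arm 4 of 43 bins did, and on the other autosomes 11.4%. The share covered in KO cells ranged from 5.34 to 75.2% per bin, with a median of 33.9%. That median is at the 92.6th percentile of the 2589 bins of the other autosomes, whose own median was 18.7%, and the short arm had 20.4%. KO regions covered at least 30% of the sequence in 59 of 100 bins of the long arm, 4 of 43 of the short arm and 13.6% of those of the other autosomes. At least 50% was covered in 21 bins of the long arm, in 0 of 43 of the short arm (exact upper limit 8.22%) and in 1.82% of the bins of the other autosomes. The median WT region count per bin was 14.5, at the 47.2nd percentile of the other autosomes, and the median RepID count was 4, at the 40.6th percentile.

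The excess in KO coverage was also seen between bins with like numbers of WT regions. In bins with 10 to 29 WT regions, the median share covered in KO cells was 34.3% on the long arm (45 bins), 20.2% on the short arm (10 bins) and 20.1% on the other autosomes (627 bins). With 30 or more WT regions, the medians were 54.9% (27 bins), 27.1% (18 bins) and 24.9% (963 bins). With 1 to 9 WT regions they were 17.8% (28 bins), 13.9% (14 bins) and 12.2% (957 bins). The ranges overlapped in each class, and single bins of other autosomes reached 75.1%.

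**Figure D2:**
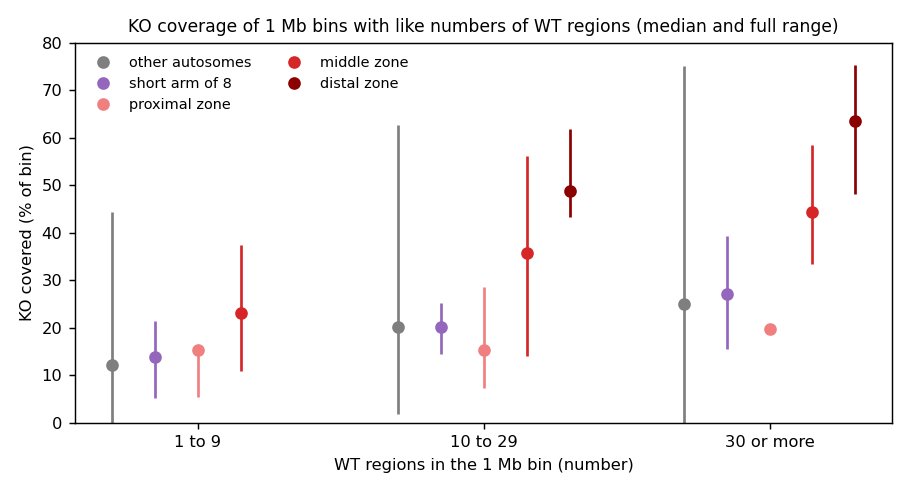
Share of 1 Mb bins covered in KO cells (percent), with bins grouped by their number of WT regions. Points are medians and lines the full range over bins. In bins with 10 to 29 WT regions the median was 15.3% in the proximal zone, 20.2% on the short arm and 20.1% on the other autosomes. It was 35.8 and 48.8% in the middle and distal zones. In bins with 1 to 9 WT regions the proximal zone (15.3%) was slightly above the short arm (13.9%) and the other autosomes (12.2%).

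The arm was not uniform. The 4 zones used here were set after the values along the arm had been seen. The proximal zone runs from 47 to 67 Mb, up to the first later bin with over 25% covered in KO cells. The middle zone runs from 67 to 123 Mb, where the second largest step in the KO to WT ratio lies, and the distal zone from 123 to 142 Mb. The end zone runs from 142 Mb, the first bin with at least 50 RepID regions, to the last region at 146301461. Because the zones were cut on these values, their differences in KO coverage, ratio and RepID density are descriptions.

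The proximal zone lay below the short arm in KO coverage. Its 20 Mb held 272 WT regions (13.6 per Mb), 961 KO regions (48.05 per Mb) and 96 RepID regions (4.8 per Mb). KO regions covered 14.9% of it, below the 20.7% of the short arm, and their median score was 121, against 129 there. WT regions covered 4.09%. The ratio of KO to WT regions was 3.53, so in this zone a high ratio went with few WT regions. Its first bin, from 47 to 48 Mb, differed from those that followed, with 28.5% covered in WT and 28.6% in KO cells, and it held the widest WT region of the arm, chr8:47084801-47176000, which spanned 91200 bp and was 37.9% covered in KO cells. The lowest coverage of the arm in KO cells was in the bin from 51 to 52 Mb, at 5.34%, with 1 WT region and 17 KO regions.

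The middle zone had nearly as few WT regions per Mb as the proximal zone and far more KO coverage. Its 56 Mb held 887 WT regions (15.8 per Mb, 3.59% covered) and 4277 KO regions (76.4 per Mb, 32.9% covered). The ratio was 4.82 by count and 9.17 by covered length, the highest of the 4 zones on both measures. The median KO score was 176, the 71.5th percentile of the KO list. The median WT score was 89, the 37.3rd percentile of the WT list. RepID was sparse, with 236 regions (4.21 per Mb). KO coverage was not continuous within the zone. It stood at 13.6% in the bin starting at 76 Mb, at 13.2 and 14.0% in those starting at 83 and 84 Mb, and at 10.9 to 18.9% in the 5 bins from 111 to 116 Mb, whereas it reached 58.4% in the bin starting at 102 Mb.

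In the distal zone, initiation was dense in both lines and KO regions covered more than they did in any other zone. Its 19 Mb held 882 WT regions (46.4 per Mb, 15.2% covered) and 1723 KO regions (90.7 per Mb, 57.8% covered). KO coverage in its bins ran from 43.4 to 75.2%. The median KO region was 5000 bp wide and scored 270, the 89.2nd percentile of the KO list. The WT regions had a median score of 105.5, the 44.6th percentile of the WT list. The ratio by count was 1.95, close to that of the other autosomes, while the ratio by covered length was 3.81. The 143 RepID regions amounted to 7.53 per Mb.

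The end zone was the only one in which WT regions covered more than KO regions. In its 4.30 Mb, 264 WT regions (61.4 per Mb) covered 68.6% and 433 KO regions (101 per Mb) covered 49.3%, a ratio of 0.719 by covered length and 1.64 by count. The 4 bins starting at 142 to 145 Mb were the only bins of the arm in which WT coverage exceeded KO coverage. Such bins were more frequent elsewhere, at 6 of 43 on the short arm (14.0%) and 16.0% on the other autosomes, against 4% of the long arm. The median WT region here was 6100 bp wide and scored 724, against 86.5 to 105.5 in the other zones. RepID was concentrated here, with 310 regions (72.1 per Mb), that is 39.5% of the RepID regions of the arm in 4.33% of its length. The 4 bins starting at 142, 143, 144 and 145 Mb held 59, 65, 84 and 86 RepID regions, and no other bin of the arm held more than 26.

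The largest steps were found by comparing the means of the 5 bins on either side of each boundary. In KO coverage, the largest was a rise of 30.5 points at 116 Mb, from 14.4 to 44.9%. In windows of 250 kb the rise began at the boundary itself, with 13.4% covered from 115.75 to 116 Mb and 29.1% from 116 to 116.25 Mb. The next were a rise of 17.9 points at 94 Mb, from 30.2 to 48.1%, and a decrease at 111 Mb from 32.2 to 14.4%. Among the largest steps of each autosome, ranked by size, that of chromosome 8 came after those of chromosome 10 (-52.3 points) and chromosome 16 (49.7 points). For the log2 ratio of KO to WT counts, chromosome 8 ranked 15 of 22, and its largest step lay on the short arm, at 13 Mb (2.68). WT coverage did not step at 116 Mb: its largest step was at 140 Mb, from 12.4 to 57.9%, followed by 132 and 123 Mb. The log2 ratio of KO to WT counts stepped up at 105 Mb by 2.27, from 1.16 to 3.43, and down by 1.53 at 123 Mb. With covered bases in place of counts, the largest step had the opposite sign, -2.92, and lay at 141 Mb. Both ratio steps went with a change in WT coverage, which averaged 10.6% before and 2.28% after 104 Mb, and 2.07% before and 12.3% after 123 Mb. The largest step in RepID counts was at 141 Mb, from 4.4 to 61.4 regions per bin.

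**Figure D3:**
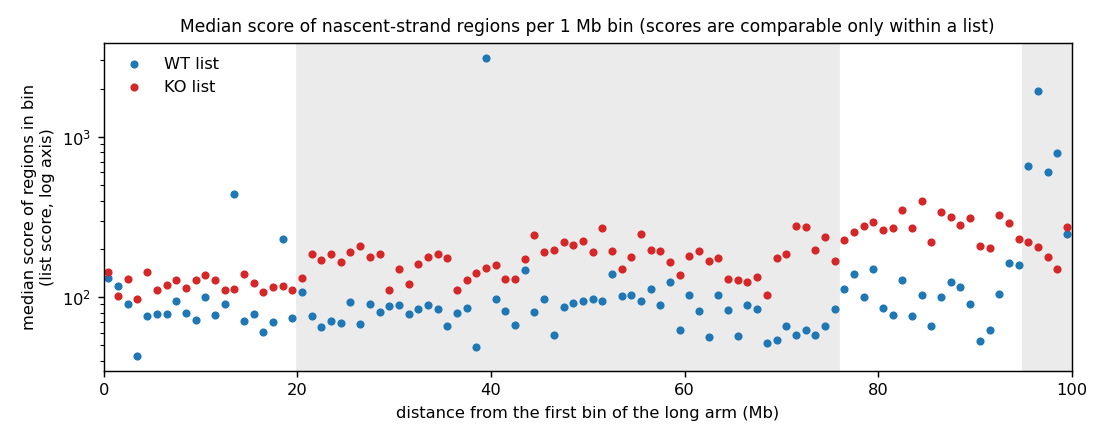
Median score of the WT and KO regions in each 1 Mb bin, on a log axis, against the distance from the first bin of the long arm in Mb; shading marks the zones and scores are comparable only within a list. KO medians lay between 97.5 and 144 in the proximal zone and between 202 and 397 in the distal zone, whereas WT medians stayed between 53 and 163 in the distal zone and reached 1943 in the end zone.

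KO scores, like KO coverage, were higher in the distal than in the proximal zone, but the 2 did not run together in every bin. The bin at 51 Mb had the lowest coverage of the arm (5.34%) and the highest median KO score of the proximal zone (144). In the end zone, the bin at 146 Mb had the lowest coverage (15.06%) and the highest score (273). A correlation of score with coverage was not computed. The median score per bin ran from 97.5 to 144 in the proximal zone and from 202 to 397 in the distal zone, so these bins did not overlap. The middle zone spanned 103 to 279. The largest step in median KO score, of 101.6, was at 117 Mb, from 132.8 to 234.4, next to the largest step in coverage. In the WT list, the median score per bin ran from 53 to 163 in the distal zone. The highest WT median, 3119, was in the bin starting at 86 Mb.

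The highest-scoring WT regions of the arm lay in the end zone, and KO cells kept only stretches of them. The highest, chr8:142360001-142447600, had a score of 34082, the tenth highest of the WT list, spanned 87600 bp and contained 22 RepID regions. In KO cells it was overlapped by 8 separate regions that covered 46.1% of it. Their scores, 104 to 624, ran from the 30.5th to the 98.8th percentile of the KO list. The next 4 were chr8:144984401-145034200 (score 31588), chr8:145713401-145764600 (28364), chr8:144630601-144702400 (27778) and chr8:144542601-144625000 (27475). They held 6, 11, 11 and 4 RepID regions and were covered by KO regions over 39.8, 37.9, 44.8 and 56.3% of their length, in 6, 8, 9 and 11 pieces. Of 52 WT regions of at least 20 kb on the arm, 41 lay in the end zone, where they covered 1.60 Mb and contained 181 RepID regions (58.4% of those of the zone). Of these 41, 38 were bound by RepID and 40 were overlapped by a KO region, with a median of 57.3% of their length covered (range 0 to 89.3%). At that width, 4 of 5 bound and 6 of 6 unbound WT regions of the short arm were overlapped too. The part of width in these counts was not tested.

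The highest-scoring KO regions lay elsewhere. The first, chr8:86726401-86843600, spanned 117200 bp with a score of 36746, the fifth highest of the KO list, and had no RepID region within 150011 bp. In WT cells 10 regions covered 84.3% of it. The second, chr8:86553801-86576400, scored 8529 and matched a WT region, chr8:86554401-86576400, that scored 11466. The next were chr8:102257601-102311800 (score 3292), chr8:140103001-140156600 (3244) and chr8:58117801-58128000 (2137). In the stretch of 54200 bp from 102257601, WT cells had 11 small regions with scores of 35 to 280 that covered 36.2%, so a run of separate WT regions corresponded to a single KO region. The same was seen from 140103001, where 5 WT regions covered 28.7% of 53600 bp. Among KO regions more than 2 kb from a WT region, the highest score was 1588, at chr8:123525401-123553800, which spanned 28400 bp and lay 25600 bp from the nearest WT region.

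The 3 highest RepID scores were equal, at 3100. They belonged to chr8:123792224-123795371, chr8:134581788-134585592 and chr8:145007728-145019530. All 3 lay inside WT regions. KO regions covered 55.5 and 73.7% of the first and second. The third was the widest RepID region of the arm, at 11803 bp. No KO region overlapped it, and the nearest was 1470 bp away. The fourth, chr8:143691866-143696661 (score 2980.84), was covered over 5.44% of its length in KO cells, and the fifth, chr8:142425881-142429630 (2822.77), lay 3570 bp from the nearest KO region.

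RepID regions of the arm lay near WT origins at about the usual rate, and far more often near KO regions than elsewhere. Within 2 kb of a WT region lay 720 of 785 RepID regions (91.7%), against 95.2% on the short arm and 91.2% on the other autosomes. Within 2 kb of a KO region lay 620 (79.0%), against 45.5% on the short arm and 51.6% on the other autosomes, a difference of 33.5 points (26.4 to 40.4) between the arms. RepID regions near WT regions alone made up 17.5% on the long arm (137), against 51.9% on the short arm. By zone, the share near a KO region was 42.7% in the proximal zone, close to that of the short arm, and 80.1, 86.0 and 86.1% in the middle, distal and end zones. KO coverage moved with these shares, at 34.8% of the long arm and 20.7% of the short arm, and its part in them was not tested.

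RepID density along the arm followed WT more than KO initiation. Over the 100 bins, which share their libraries and neighbours, Spearman's rho between RepID and WT counts was 0.709 and that between RepID and KO counts 0.319, and rho with the log2 ratio of KO to WT was -0.698. Pearson's r between RepID counts and WT coverage was 0.887, and 0.583 without the last 5 bins. In the 11 bins without a RepID region, WT counts ran from 1 to 12 (median 5) while KO counts ran from 17 to 88 (median 54). In the 6 bins with 20 or more RepID regions, WT counts ran from 47 to 97 (median 61) and KO counts from 86 to 114 (median 101.5). KO counts of the 2 groups of bins overlapped by a narrow margin, and WT counts did not. Close spacing of RepID regions was about as frequent on the arm as elsewhere. On the long arm 47.9% had another within 1 kb, against 45.9% on the short arm and 48.9% on the other autosomes. In the end zone 57.4% had another within 1 kb, with a median distance to the nearest of 0.617 kb, whereas in the middle zone 40.3% did and the median distance was 16.4 kb. The longest stretch without RepID, chr8:110986957-114058298, held 147 KO and 11 WT regions.

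Long stretches without WT initiation held KO regions, at a lower coverage than the 34.8% of the whole arm. The longest gap in the WT list, chr8:113146001-114444400 (1298.4 kb), held 76 KO regions that covered 17.4%, with scores of 44 to 574 and a median of 122, and 1 RepID region. The second, chr8:60033801-61064600 (1030.8 kb), held 31 KO regions that covered 8.63%, and the third, chr8:78200601-79059400 (858.8 kb), held 46 that covered 16.2%. Neither held a RepID region. The longest gap in the KO list was shorter, at 306.6 kb (chr8:51718401-52025000), and held no WT region. The next KO gap, chr8:145285401-145501800 (216.4 kb), lay in the end zone and held 6 WT regions. The highest ratios of single bins were found where WT regions were few: the bin starting at 78 Mb had 1 WT and 58 KO regions (log2 ratio 4.88), that at 113 Mb had 1 and 55 (4.81), and that at 106 Mb had 3 and 88 (4.48). The lowest were 0.11 in the bins starting at 134 and 140 Mb, which held 97 and 84 WT regions, followed by 0.22 in the last bin, at 146 Mb.

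More WT origins of the long arm were kept in KO cells than elsewhere. An overlap of 1 bp or more with a KO region made a WT region a kept origin. On the long arm 1937 of 2305 were kept (84.0%, 82.5 to 85.5), against 826 of 1333 on the short arm (62.0%) and 60.9% on the other autosomes. Over the whole WT list 60.6% were kept. The difference between the arms was 22.1 points (19.1 to 25.1). By zone, 51.1% were kept in the proximal zone, 84.7% in the middle, 93.5% in the distal and 84.1% in the end zone, so the proximal zone was below the short arm and the other 3 above it. The centre of the region was covered in KO cells in 74.5% of WT origins of the long arm and 44.7% of those of the short arm. At 9 to 10 kb from the centre, the corresponding shares were 50.7 and 28.2%. KO coverage was thus higher on the long arm both at the centres and in their surroundings, and centre divided by edge gave 1.47 there and 1.58 on the short arm.

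**Figure D4:**
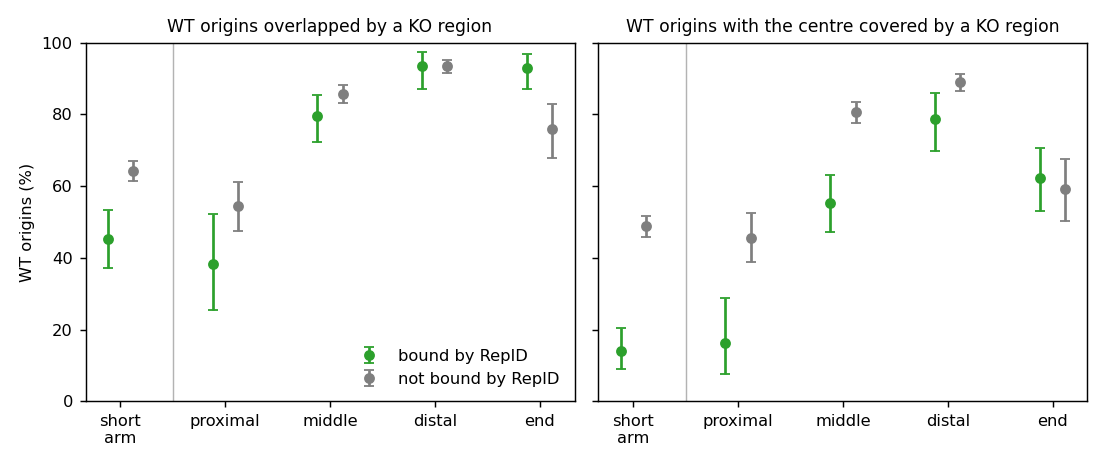
Share of WT origins overlapped by a KO region (left) and with their centre covered by one (right), in percent, for origins bound and not bound by RepID on the short arm and in the 4 zones of the long arm; bars are exact 95% binomial intervals that cover counting error only. Bound origins were kept less often than unbound ones on the short arm and in the proximal and middle zones, at 45.2, 38.2 and 79.5%, at 93.5% like the unbound ones in the distal zone, and more often in the end zone, at 92.9%.

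Origins bound by RepID, defined as WT regions with a RepID region at a gap of at most 2 kb, made up 451 of 2305 (19.6%), against 11.8% on the short arm and 18.9% on the other autosomes. Bound origins had higher scores and were wider in WT cells, scoring 302 at the median with 3400 bp of width, while unbound ones scored 89 with 2000 bp. Of the bound origins, 368 were kept (81.6%, 77.7 to 85.1), and of the 1854 unbound ones 1569 (84.6%, 82.9 to 86.2). The difference of -3.03 points had an interval of -7.18 to 0.69, which includes 0. On the short arm it was -19.0 points (-27.0 to -10.7), with 71 of 157 bound origins kept (45.2%) and 755 of 1176 unbound ones (64.2%). The difference on the other autosomes was -6.06 points (-6.97 to -5.15).

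A difference between bound and unbound origins was plain at their centres. KO regions covered the centre of 58.1% of bound and 78.5% of unbound origins of the long arm, a difference of -20.4 points (-25.3 to -15.5). On the short arm the shares were 14.0 and 48.8%, a difference of -34.8 points (-40.2 to -27.9). At least 50% of the region was covered in 63.6% of bound and 80.2% of unbound origins, and the whole region in 27.9 and 63.6%. On the short arm 2.55% of bound origins were covered whole. Around bound origins of the short arm, KO coverage was 14.0% at the centre (22 of 157, 8.99 to 20.4) and 18.9% at 9 to 10 kb. The interval includes the edge value, so no dip at the centre can be read from it. On the long arm KO coverage was higher at the centre (58.1 against 45.0%). Bound origins of the other autosomes also had more coverage at the centre (29.3%) than at the edge (24.5%), and there bound and unbound centres differed by -19.0 points (-19.9 to -18.1), near the value of the long arm. The proximal zone was near the short arm in this respect, with 16.4% at the centre and 17.0% at the edge.

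**Figure D5:**
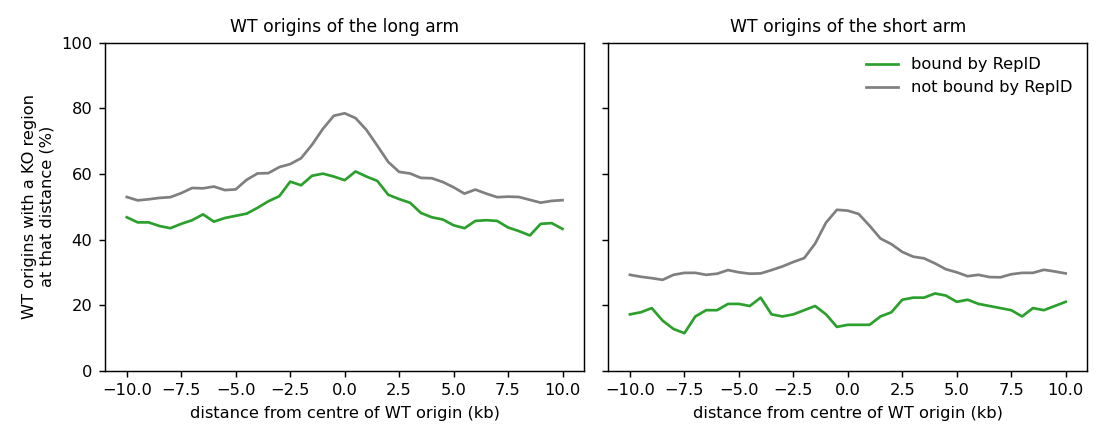
Share of WT origins (percent) at which a KO region covers the position at each distance from the origin's centre (kb), for origins bound and not bound by RepID on the long arm (left) and short arm (right). On the long arm both lines were higher at the centre, at 58.1 and 78.5%, than at the edges, whereas bound origins of the short arm had no peak at the centre, at 14.0%.

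The contrast between bound and unbound origins changed along the arm. In the proximal zone 21 of 55 bound origins were kept (38.2%) and 54.4% of unbound ones, a difference of -16.2 points (-29.5 to -1.41). In the middle zone 128 of 161 bound origins were kept (79.5%), a difference of -6.31 points (-13.6 to -0.159). In the distal zone 101 of 108 were kept (93.5%), and the difference was -0.0215 points (-6.50 to 3.82). In the end zone the sign was the opposite by the rule of an overlap of 1 bp or more. There 118 of 127 bound (92.9%) and 75.9% of unbound origins were kept, a difference of 17.0 points (8.35 to 25.5). The centres showed the same order, with differences of -29.3, -25.4, -10.3 and 3.08 points, the last with an interval from -8.63 to 14.6. The opposite sign in the end zone depended on the rule. At least 50% of the region was covered in 66.9% of bound and 65.7% of unbound origins of that zone. The whole region was covered in 11.8% of bound and 23.4% of unbound ones, so by whole coverage bound origins were again lower. Changes between zones were not tested. The intervals are no such test, because the zones were cut on KO coverage, the KO to WT ratio and RepID counts. Width moved with the kept share, and its part in the contrast within each zone was not tested. On the whole arm, bound origins under 2 kb were kept in 66.1% and unbound ones in 79.7%. From 2 to 5 kb the shares were 77.6 and 88.2%, from 5 to 20 kb 98.2 and 93.9%, and at 20 kb and over 97.7% (43 of 44) and 100% (8 of 8). On the short arm, 20.6% of bound and 54.2% of unbound origins under 2 kb were kept.

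The origins of the long arm that were lost in KO cells included high-scoring ones at its end. Among bound origins without an overlapping KO region, the highest score was 7790, at chr8:145308401-145332600, which spanned 24200 bp, contained 5 RepID regions and lay 23000 bp from the nearest KO region, inside the second longest gap of the KO list. It was followed by chr8:143290601-143298400 (score 1376), chr8:104510801-104514200 (1026), chr8:52810801-52812800 (839) and chr8:81397601-81400200 (832), which lay 4000, 0, 3000 and 1000 bp from the nearest KO region. Among unbound origins, the 4 highest-scoring lost ones were also in the end zone, at chr8:145436401-145451800 (3954), chr8:145191201-145200600 (3486), chr8:145462201-145476200 (1899) and chr8:145804401-145809200 (1763), and the fifth lay in the first bin of the arm, at chr8:47352401-47360400 (1366). Of the lost origins, 25 of 83 bound (30.1%) and 100 of 285 unbound ones (35.1%) lay within 2 kb of a KO region. The median distance to the nearest KO region was 3.8 kb for bound and 3.2 kb for unbound ones. Over 10 kb away lay 13 and 51 of them. On the short arm the medians were 3.6 and 3.8 kb, and on the other autosomes 5 and 4.2 kb. The median gap between neighbouring KO regions of the long arm was 4.4 kb. Lost origins had lower scores than kept ones, with medians of 146 against 378 for bound and 77 against 91 for unbound origins. They were also narrower, with median widths of 2000 against 4200 bp for bound and 1600 against 2000 bp for unbound origins. The part of width in the scores was not tested.

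Most KO regions of the long arm were apart from WT origins. Of 7394, 5190 (70.2%, 69.1 to 71.2) were more than 2 kb from a WT region, against 62.0% on the short arm and 62.9% on the other autosomes. They were narrower than the 2204 within 2 kb of a WT region, with a median width of 3000 against 5200 bp, and lower in score, with a median of 155 against 268.5. On the short arm the corresponding scores were 120 and 144. The share more than 2 kb away was 80.1% in the proximal and 80.9% in the middle zone, 54.7% in the distal zone and 3.93% in the end zone. Within 2 kb of a RepID region lay 526 KO regions of the long arm (7.11%), against 3.42% on the short arm and 6.57% on the other autosomes.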

How the data were processed

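The authors deposited 1 list of regions per library, with start, end and score, for nascent strands of WT and RepID KO HCT116 cells and for RepID ChIP-Seq in U2OS cells. The RepID score is the one given by MACS, called by the authors at P = 1e-09 against genomic input of U2OS cells. The deposited nascent-strand score is a whole number whose meaning is not given in the sources used here. The submitters' processing notes name hg19, MACS and SICER with no role, and nascent-strand regions lie on a grid of 200 bp. The HCT116 genomic control was not analysed here. Read totals are not in the lists, so depth is unknown. With 1 library per condition, unequal depth cannot be told apart from a difference between WT and KO cells.

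All values were computed from the lists in Python 3.11.15 (pandas 2.3.3, SciPy 1.17.1 and numpy 2.4.6), with plots by matplotlib 3.10.9. The overlap functions were tested on simulated data and against bedtools 2.31.1. Shares have Clopper-Pearson intervals, differences Newcombe intervals, and ratios of counts intervals from the exact binomial. Neighbouring regions are not independent, so intervals are narrow. With 1 library per condition no test between conditions was made. Positions are 1-based.

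The arm, the comparisons and the rules were chosen with earlier results of these data known. Zones were set after the values along the arm were seen. Named regions were the 5 of each list with the highest score, the 5 highest-scoring bound and unbound WT regions without a KO region, the extreme bins, steps and gaps, and the regions next to the start of the arm. The widest WT region and the highest-scoring KO region away from WT regions were added after their values were seen. Genes were not placed, since no annotation of hg19 was used here. Alternatives changed score limits, distances, bins and the start of the arm.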

Additional observations from a re-analysis of the deposited data

How the results depend on the processing

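With 1 library per list, there was no replicate to leave out. No paired analysis was possible because each condition has 1 sample. Intervals cover counting error only, and unknown depth limits every contrast between WT and KO. The start at 67 Mb and the alternatives for the step in KO coverage were chosen after seeing the data.

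Of 53 alternatives, 13 left a value within its counting interval or within 1.5 times a count, 39 moved it and 1 reversed a sign. The KO to WT ratio became 7.40 with only WT regions at or above the median score, 2.14 with the KO list limited to as many top-scoring regions as the WT list, and 2.96 with regions under 1 kb apart merged. WT coverage became 6.72% with the higher-scoring WT regions, 8.53% from 50 Mb and 9.89% from 67 Mb. KO coverage became 30.6% with the limited KO list, 35.3% from 50 Mb and 39.8% from 67 Mb. The bound share became 34.8% with the higher-scoring WT regions, 17.3% by overlap, 24.0% at 5 kb and 12.5% with the higher-scoring RepID regions.

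With the higher-scoring WT regions, 86.6% of all, 85.6% of bound and 87.1% of unbound origins were kept. The limited KO list gave 77.2, 73.8 and 78.0%, kept at 50% covered gave 77.0, 63.6 and 80.2%, a gap of 2 kb gave 89.5, 87.1 and 90.0%, and the arm from 67 Mb gave 88.4, 87.6 and 88.6%. The difference between bound and unbound origins became -16.6 points at 50% covered and stayed between -5.17 and -1.01 otherwise. With the higher-scoring RepID regions it was -5.17 points, and its interval, -10.4 to -0.604, no longer included 0. The difference in kept share between the arms became 33.7 points with the limited KO list, 31.1 at 50% covered, 14.8 at a gap of 2 kb and 26.5 from 67 Mb. RepID regions near WT regions became 88.8% by overlap, and those near KO regions 58.7% by overlap and 89.9% at 5 kb.

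The largest step of the log2 ratio became -2.92, at 141 Mb, when covered bases replaced counts; the cause was not tested. With 10 bins on either side it was 2.13, at 105 Mb. The largest step of KO coverage became 28.0 points at 116.5 Mb with shifted bins and 25.04 points at 117 Mb with 10 bins on either side.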
